A study of Mus musculus with 8 samples.

Results

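Translation initiation factor genes were taken as those whose mouse symbol is Eif followed by a number from 1 to 6, without Eif4a3, Eif4e1b, Eif4enif1 and the Eif2ak kinases. They are 47 of the 21553 Ensembl genes with a value in these libraries, and all 47 had enough reads to be tested. By the role of their product they comprise 4 eIF1 and eIF1A genes, 5 genes of eIF2 and its partner eIF5, 5 of eIF2B, 2 of alternative initiator tRNA factors, 14 of eIF3, 5 of eIF4E and 4E-BP, 7 of eIF4A, eIF4B, eIF4G and eIF4H, 4 of eIF5A, eIF5B and eIF6, and Eif1ad, for which no complex is listed. Assignment to a group came from the gene names and not from the measured values, and Eif4e3 was not analysed here.

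Translation initiation factors are the proteins that bring the ribosome, the initiator tRNA and an mRNA together at the start codon. eIF2 delivers the initiator tRNA as a ternary complex with GTP and is recharged with GTP by eIF2B, while eIF1, eIF1A, eIF3 and eIF5 act on the small ribosomal subunit. eIF4E binds the mRNA cap, eIF4G bridges it to the ribosome and eIF4A unwinds the leader, and the 4E-BP proteins block the contact of eIF4E with eIF4G. In the early mouse embryo the proteins are first made from mRNA stored in the egg, until the embryonic genome is switched on at the 2-cell stage and maternal mRNA is cleared.

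Polyadenylated RNA of whole embryos from B6CBA F1 crosses was sequenced in 8 libraries. The 2-cell embryos were taken 24 h after injection and had been given Snrpb mRNA, Snrpd2 mRNA, both of these, or mRNA for the fluorescent protein mCherry, and the 1-cell embryos were taken 5 h after the same 4 injections. Snrpb and Snrpd2 encode Sm proteins of the spliceosome, and the study raised them to ask about splicing when the embryonic genome becomes active. All embryos were injected, mCherry controls included. A condition is 1 library, made from a pool of 40 embryos collected over 3 experiments, so no condition had a replicate pool. In the tests of stage the 4 injections stood in for replicates, and p-values therefore measure the spread between differently injected pools. A level is an average over the whole embryos of a pool, so a large change in some of them and a smaller change in all cannot be told apart. It is also relative to the polyadenylated RNA of its library. Higher, lower, rise and fall are meant in this sense, since RNA per embryo and the poly(A) tails of single mRNAs were not measured here.

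The libraries held 39492734 to 44648717 counted reads at the 2-cell stage and 49461122 to 59979046 at the 1-cell stage. Levels are given as cRPKM, reads per kilobase of a fixed length per gene scaled to the reads of the library. At the 2-cell stage Snrpb stood at 876 to 1704 cRPKM in the libraries given it and 17.4 to 26.2 cRPKM in the others, and Snrpd2 at 4726 to 5240 cRPKM and 5.20 to 10.6 cRPKM. At the 1-cell stage these ranges were 11913 to 43850 and 6.09 to 7.96 cRPKM for Snrpb, and 9142 to 17926 and 0.85 to 1.89 cRPKM for Snrpd2. Every library labelled with Snrp mRNA thus held the mRNA its label names. The level of mCherry mRNA was not measured here. Of 12 egg and zygote markers 11 were found, all above 0 in every library, with a summed level of 4392 to 5214 cRPKM at the 2-cell stage and 6530 to 7360 cRPKM at the 1-cell stage. The 20 cumulus cell markers summed to 21.6 to 25.4 cRPKM at the 2-cell stage. At the 1-cell stage they summed to 35.0 to 51.8 cRPKM in the 3 libraries given Snrp mRNA and 25.1 cRPKM with mCherry. The 7 sperm markers summed to 157 to 189 cRPKM at the 2-cell stage and 28.9 to 46.9 cRPKM at the 1-cell stage, and 10 markers of blood, fibroblasts and oviduct to 17.0 to 29.6 cRPKM and 2.76 to 5.11 cRPKM. In the 2-cell libraries 1 or 2 of the sperm markers were at 0, Tnp2 in each library. Of the last 10 markers 3 or 4 were at 0 there, Hbb-bs and Col3a1 in each library. In the 1-cell libraries 1 to 3 sperm markers and 4 to 6 of the last 10 were at 0, Hbb-bs and Hba-a1 in each library. The sums rest on the other genes of each list. The part of these other markers in the differences between the stages was not tested. For 10 of the 47 initiation factor genes over 10% of the 50-base words of their transcripts also occur in other genes, and for 3 of them over 50%. The 3 are Eif3j2, Eif4ebp3 and Eif4a1. The rest are Eif3j1, Eif2s3x, Eif3m, Eif3h, Eif3e, Eif2s2 and Eif1, with shares from 39.8% for Eif3j1 to 21.4% for Eif1. How reads with several matches were counted is not given in the sources used here.

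The 47 genes took 0.667% to 0.714% of all reads at the 2-cell stage, against 0.580% to 0.601% at the 1-cell stage. Their levels differed widely from gene to gene. Eif5a, whose product carries the modified residue hypusine and helps the ribosome form peptide bonds, had the highest mean level of the 47 at both stages, 1375 ± 118 cRPKM at the 2-cell stage and 525 ± 97.9 cRPKM at the 1-cell stage (SD, n = 4 each). After it came Eif1, Eif4e, Eif4g2 and Eif1b at the 2-cell stage, with means between 204 and 495 cRPKM. At the 1-cell stage the genes next to Eif5a were Eif1b, Eif2b1, Eif4a1 and Eif1, with means between 184 and 444 cRPKM. Eif2s3y, Eif4ebp3 and Eif3j1 had the lowest means at the 2-cell stage, from 1.18 to 2.23 cRPKM.

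**Figure D1:**
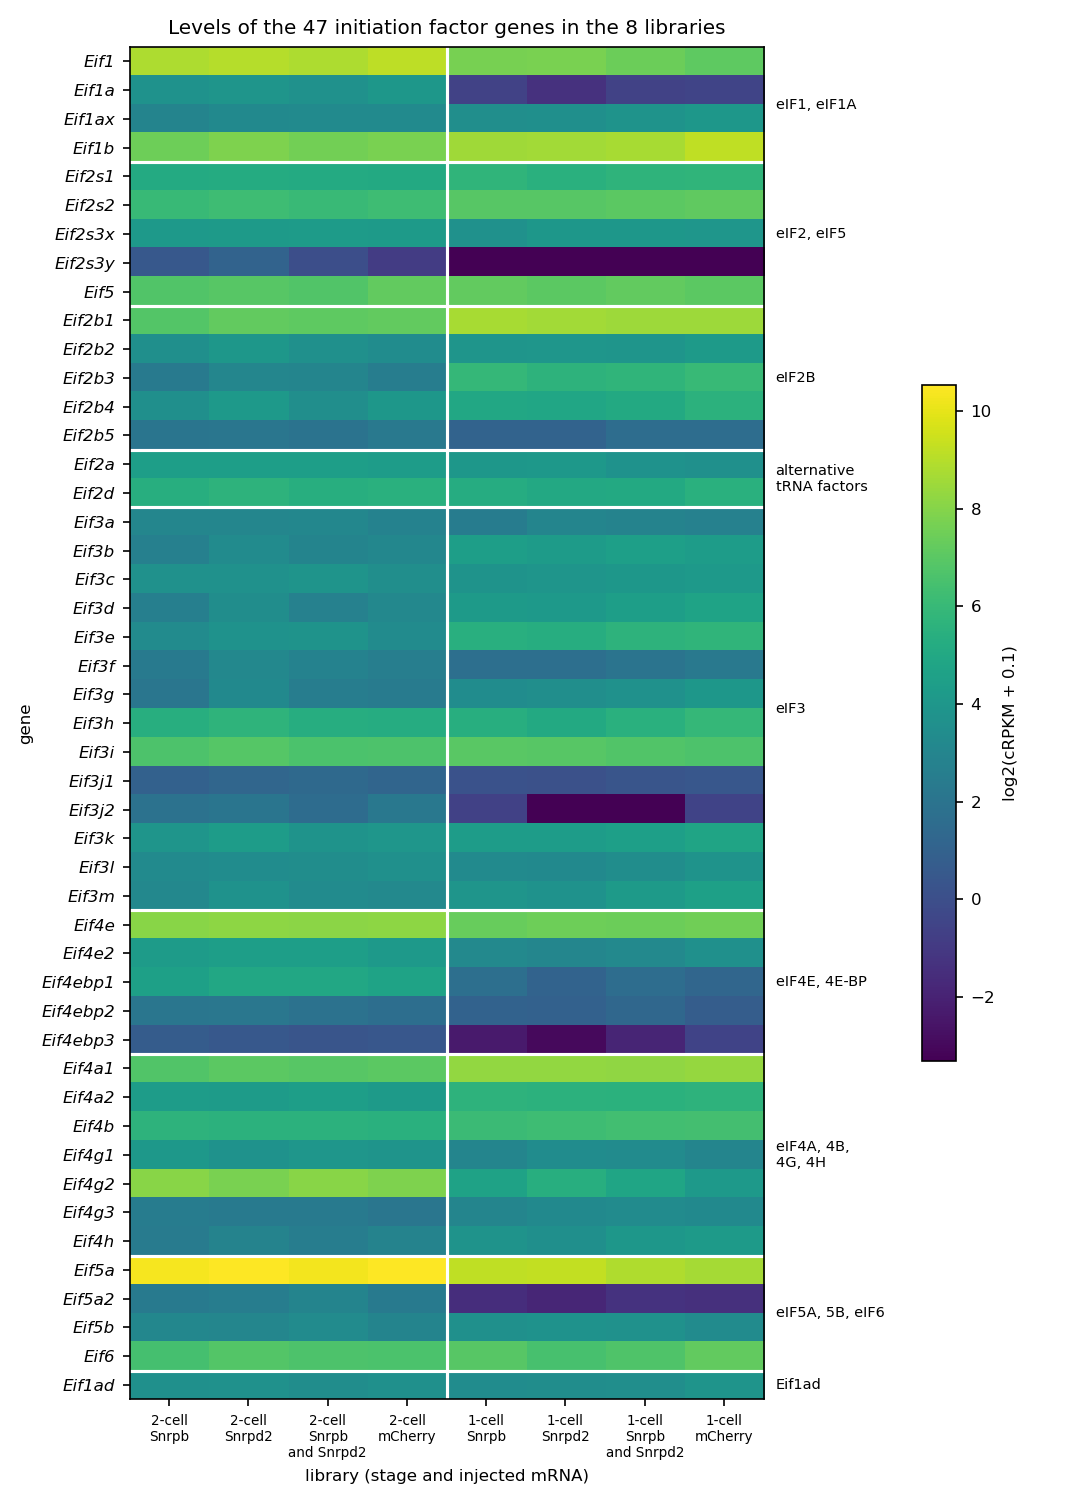
Heat map of log2(cRPKM + 0.1) for the 47 genes (rows, grouped by factor) in the 8 libraries (columns, the 2-cell libraries on the left and the 1-cell libraries on the right). Eif2s3y had 0 reads in all 4 libraries of the 1-cell stage, and Eif5a was the brightest row at both stages.

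At the 2-cell stage, relative to the 1-cell stage, 16 of the 47 genes were higher, 24 were lower and 7 did not pass the test (edgeR quasi-likelihood test, adjusted p under 0.05). Most genes differed between these stages, since of all 16264 genes tested 70.1% were called, 38.1% higher and 32.0% lower. The median change of the 47 was -0.40 on the log2 scale, against 0.15 over all genes tested. All 5 genes of eIF4E and 4E-BP were higher, 4 of 5 eIF2B genes and 8 of 14 eIF3 genes were lower, and the eIF1 and eIF1A genes divided into 2 higher and 2 lower. Fold changes are given after TMM scaling (trimmed mean of M-values) and differ from the ratios of cRPKM, which are scaled to library totals. With totals the median of all genes was 0.41 instead of 0.15, and 18 of the 47 genes were higher and 19 lower. Over all genes tested 7273 were then higher and 4162 lower. None of the 40 called genes changed direction under any of the 16 alternative settings, and 29 of them were called in every setting.

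In cRPKM, all 4 of the 2-cell values were above all 1-cell values for 18 of the 47 genes and below them for 17, and the stages overlapped for 12. Over all genes tested 67.7% had no overlap, 42.8% with all 2-cell values above and 24.8% with all below. After TMM scaling, 16 of the 47 were higher at the 2-cell stage within each of the 4 injections and 26 were lower within each, where the shares of all genes tested were 40.9% and 34.7%.

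**Figure D2:**
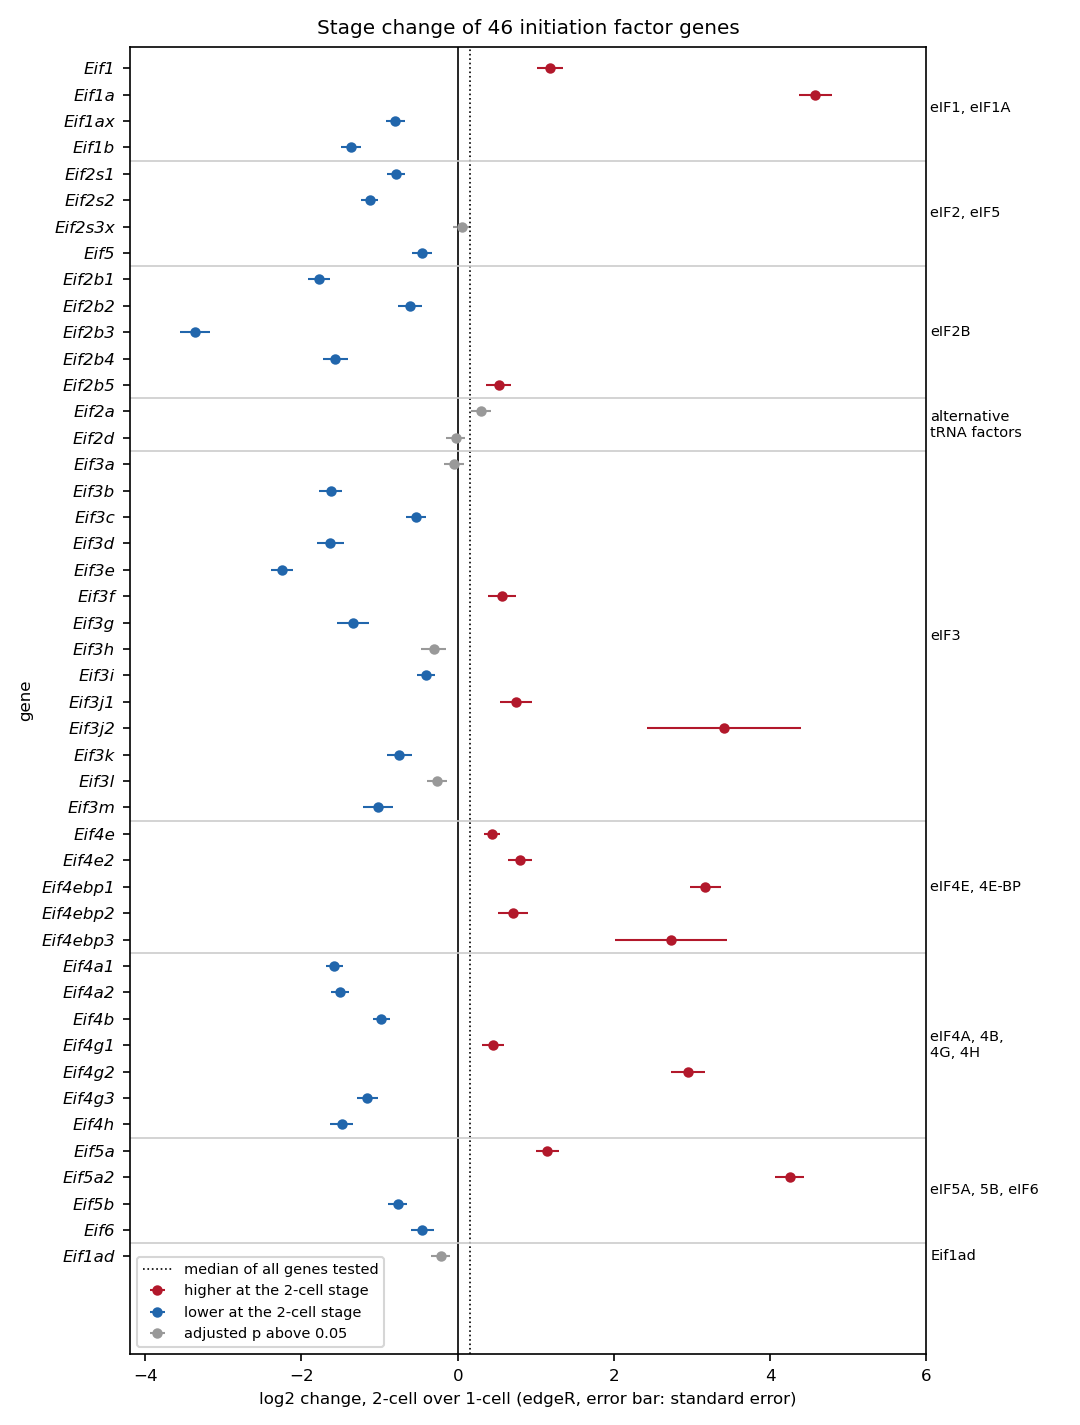
Log2 change from edgeR for each gene, 2-cell over 1-cell, with its standard error, grouped by factor. Points to the right of 0 are higher at the 2-cell stage, the dotted line is the median of all genes tested (0.15), and Eif2s3y, with 0 reads at the 1-cell stage, is not drawn. All 5 genes of eIF4E and 4E-BP lie to the right of 0, and 4 of 5 eIF2B genes lie to its left.

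eIF1 guards the fidelity of start codon choice, and it has 2 closely related genes in the mouse, Eif1 and Eif1b. Their order was opposite at the 2 stages. Eif1 had 449, 506, 449 and 577 cRPKM in 2-cell embryos given Snrpb, Snrpd2, both and mCherry mRNA, against 207, 217, 174 and 137 cRPKM in 1-cell embryos given the same. All 2-cell values were above all 1-cell values, and the gene was 2.27-fold higher (log2 1.18, SE 0.17, edgeR adjusted p = 0.00013). In 2-cell embryos given Snrpb, Snrpd2, both and mCherry mRNA Eif1b stood at 177, 234, 194 and 211 cRPKM, against 382, 386, 425 and 583 cRPKM in their 1-cell counterparts. Here all 2-cell values lay below, and the gene was 2.58-fold lower (log2 -1.37, SE 0.13, edgeR adjusted p = 5.16e-06). The ratio of Eif1 to Eif1b within a library is free of scaling between libraries. It was 2.54, 2.16, 2.32 and 2.74 in 2-cell embryos given Snrpb, Snrpd2, both and mCherry mRNA, against 0.543, 0.561, 0.409 and 0.235 in 1-cell embryos given the same. Eif1 was thus the more abundant of the pair in every 2-cell library and Eif1b in every 1-cell library, with a mean difference of 2.55 on the log2 scale (SE 0.30, two-sided exact permutation test, p = 0.0286, adjusted p = 0.0409 over 10 pairs). With 4 libraries against 4, 0.0286 is the smallest p that the 70 arrangements allow. It was reached by 7 of the 10 pairs, and the adjusted p of 0.0409 is the same for each of them. The test did not use the pairing of libraries by injection, and the genes were chosen with earlier results of these data known.

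The promoter windows of both genes are shown because the genes changed in opposite directions. They run from 250 bases before to 30 bases after the RefSeq start on GRCm38.p6, a later build than the mm9 of the counts. Capitals mark CACGTG, the E-box bound by basic helix-loop-helix factors, and CCGGAAG (or CTTCCGG on the other strand), the core bound by ETS factors. The Eif1 window is chr11:100319699-100319978 on the plus strand and the Eif1b window is chr9:120492356-120492635 on the plus strand.
Eif1: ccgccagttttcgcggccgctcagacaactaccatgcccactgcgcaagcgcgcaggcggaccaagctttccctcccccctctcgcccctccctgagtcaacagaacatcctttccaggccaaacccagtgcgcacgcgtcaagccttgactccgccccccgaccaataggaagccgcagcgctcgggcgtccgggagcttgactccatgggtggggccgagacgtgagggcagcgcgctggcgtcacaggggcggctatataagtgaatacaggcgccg
Eif1b: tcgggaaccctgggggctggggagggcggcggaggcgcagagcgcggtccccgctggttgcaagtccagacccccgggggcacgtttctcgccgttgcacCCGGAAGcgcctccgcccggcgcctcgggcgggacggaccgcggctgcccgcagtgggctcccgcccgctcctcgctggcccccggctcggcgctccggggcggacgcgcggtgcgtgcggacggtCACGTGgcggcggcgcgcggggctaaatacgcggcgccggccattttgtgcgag
The Eif1b window held 1 match to each motif, and the Eif1 window held neither. The Eif1 window matched CCAAT and TATAA, which the Eif1b window did not. Over all genes with a window, 39.7% and 27.1% had a match to these in at least 1 window. Every motif was searched on both strands, and no motif contains another. GC content was 65.7% in the Eif1 window and 78.2% in that of Eif1b.

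eIF1A, which works with eIF1 in scanning, is encoded by the autosomal gene Eif1a and the X-linked gene Eif1ax. Eif1a measured 13.1, 15.1, 13.0 and 16.2 cRPKM in the 2-cell libraries of Snrpb, Snrpd2, both mRNAs and mCherry, and 0.56, 0.30, 0.57 and 0.61 cRPKM in the matching 1-cell libraries. The 1-cell values rest on 41 to 88 reads per library and the 2-cell values on 1314 to 1767. The stages were far apart, and the gene was 23.9-fold higher (log2 4.58, SE 0.21, edgeR adjusted p = 4.89e-08). The 2-cell levels of Eif1ax were 7.54, 9.59, 9.79 and 9.71 cRPKM with Snrpb, Snrpd2, both and mCherry mRNA, and its 1-cell levels were 11.6, 11.9, 13.7 and 16.2 cRPKM with these mRNAs. Its values too did not overlap between the stages, and it was 1.74-fold lower (log2 -0.80, SE 0.12, edgeR adjusted p = 0.000149). Eif1a over Eif1ax was 1.32 to 1.74 in the 2-cell libraries, so Eif1a was the more abundant per length in each of them, and 0.0252 to 0.0484 in the 1-cell libraries. In reads Eif1ax was ahead in every 2-cell library, with 1566 to 2193. The mean difference of this ratio was 5.40 on the log2 scale (SE 0.22, two-sided exact permutation test, p = 0.0286, adjusted p = 0.0409 over 10 pairs). Summed over the 4 genes, eIF1 and eIF1A stood at 647 to 814 cRPKM at the 2-cell stage and 601 to 737 cRPKM at the 1-cell stage, ranges that overlap.

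**Figure D3:**
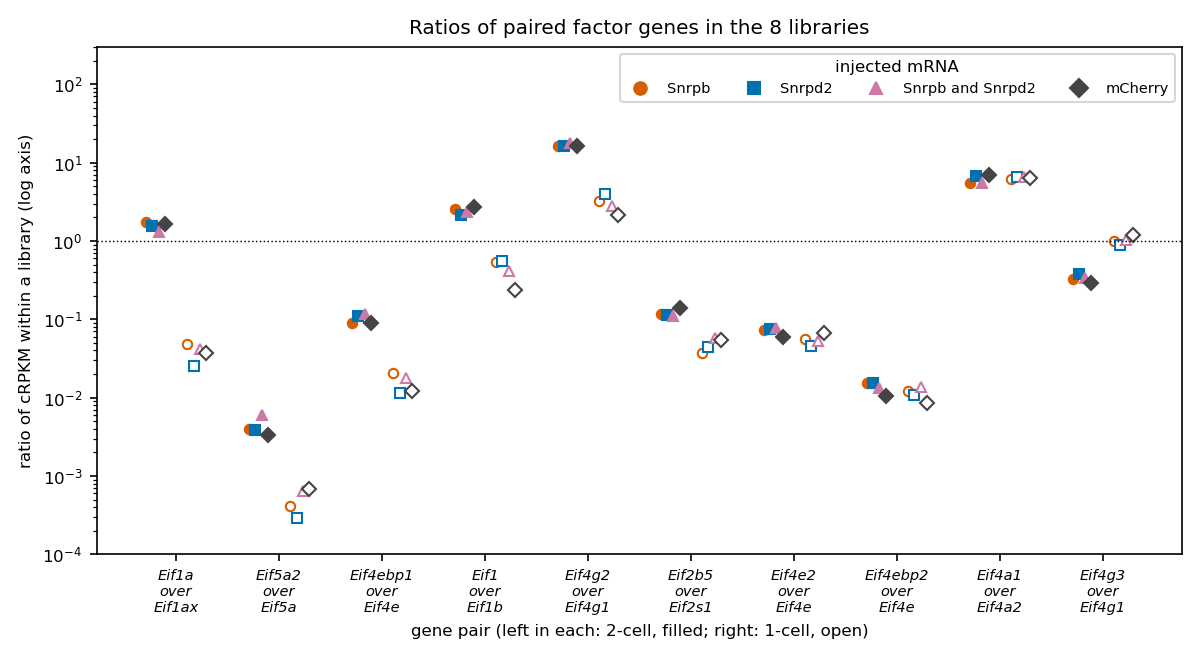
Ratio of cRPKM of the named genes within each library, on a log axis, for the 10 pairs with reads in every library (filled points on the left of each pair are 2-cell, open points on the right are 1-cell). Eif1 over Eif1b and Eif1a over Eif1ax lie above 1 in every 2-cell library and below 1 in every 1-cell library, while Eif4a1 over Eif4a2 stays between 5.43 and 6.93.

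The 3 subunits of eIF2, which carries the initiator tRNA, were not changed alike. With Snrpb, Snrpd2, both and mCherry mRNA, Eif2s2 reached 65.4, 75.7, 66.4 and 75.3 cRPKM in 2-cell embryos and 120.4, 122, 133 and 141 cRPKM in 1-cell embryos. Eif2s2 encodes the beta subunit. Its groups did not overlap, and it was 2.18-fold lower (log2 -1.13, SE 0.11, edgeR adjusted p = 5.8e-06). For Eif2s1 the values were 34.9, 36.6, 35.1 and 34.3 cRPKM at the 2-cell stage after Snrpb, Snrpd2, both and mCherry mRNA, against 54.5, 45.0, 50.6 and 54.2 cRPKM at the 1-cell stage after the same mRNAs. Eif2s1 encodes the alpha subunit, whose phosphorylation halts initiation under stress. All 2-cell values were below, and it was 1.73-fold lower (log2 -0.79, SE 0.11, edgeR adjusted p = 0.000107). The gamma subunit gene Eif2s3x did not pass the test (18.6 ± 0.48 cRPKM at the 2-cell stage and 15.1 ± 1.57 cRPKM at the 1-cell stage, SD, n = 4 each, log2 0.05, edgeR adjusted p = 0.712), and 35.5% of its 50-base words also occur in the gene Gm2223. Eif2s3x was called higher with library totals and with limma on log2 cRPKM.

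Eif2s3y, the Y-linked copy of the gamma subunit gene, was listed at 0 in all 4 of the 1-cell libraries. At the 2-cell stage it had 96 reads after Snrpb, 160 after Snrpd2, 63 after both mRNAs and 35 after mCherry, 354 reads in all. Against a floor of 3 reads over the 1-cell stage it was at least 129-fold higher, and it passed the test (edgeR adjusted p = 4.39e-05). At 0.46 to 2.02 cRPKM it remained far below Eif2s3x, with a ratio of 0.0246 to 0.109 in the 2-cell libraries. The share of male embryos in each pool is not given in the labels, and its part in the spread between the 2-cell libraries was not tested.

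Eif5 had 110.0, 124, 111 and 147 cRPKM in 2-cell embryos given Snrpb, Snrpd2, both and mCherry mRNA, against 148, 133, 147 and 133 cRPKM in 1-cell embryos given the same. Eif5 encodes the protein that makes eIF2 hydrolyse its GTP. The mCherry library at the 2-cell stage lay within the 1-cell range, so the groups overlapped, and the gene was 1.37-fold lower (log2 -0.46, SE 0.13, edgeR adjusted p = 0.00929). The call was lost with library totals, and when the 2-cell Snrpb library, the 1-cell Snrpb library or the 2-cell library given both mRNAs was left out, with log2 changes of -0.42 to -0.38 and edgeR adjusted p between 0.0532 and 0.0592 in these omissions.

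eIF2B is the exchange factor that reloads eIF2 with GTP, and its genes held the deepest fall of the 47. In 2-cell embryos given Snrpb, Snrpd2, both and mCherry mRNA Eif2b3 stood at 4.98, 8.18, 7.80 and 5.74 cRPKM, against 60.7, 49.97, 52.6 and 63.5 cRPKM in their 1-cell counterparts. Eif2b3 encodes the gamma subunit. No 2-cell value came near a 1-cell value, and it was 10.3-fold lower (log2 -3.36, SE 0.19, edgeR adjusted p = 1.9e-07). Eif2b1 measured 111, 145, 137 and 147 cRPKM in the 2-cell libraries of Snrpb, Snrpd2, both mRNAs and mCherry, and 428, 396, 359 and 359.6 cRPKM in the matching 1-cell libraries. Eif2b1 encodes the regulatory alpha subunit and was by far the most abundant of the 5 per length. Its groups did not overlap, and it was 3.43-fold lower (log2 -1.78, SE 0.14, edgeR adjusted p = 1.76e-06). The 2-cell levels of Eif2b4 were 11.8, 18.2, 11.6 and 15.8 cRPKM with Snrpb, Snrpd2, both and mCherry mRNA, and its 1-cell levels were 31.1, 29.2, 34.3 and 47.2 cRPKM with these mRNAs. Eif2b4 encodes the delta subunit. All 2-cell values lay below the 1-cell values, and it was 2.96-fold lower (log2 -1.57, SE 0.16, edgeR adjusted p = 9.02e-06). Eif2b2, the beta subunit gene, had overlapping levels, 12.6 ± 2.39 cRPKM at the 2-cell stage and 16.0 ± 1.95 cRPKM at the 1-cell stage (SD, n = 4 each), and was 1.53-fold lower (log2 -0.61, SE 0.15, edgeR adjusted p = 0.00485). It was not called with library totals (log2 -0.36).

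The catalytic epsilon subunit went the other way. With Snrpb, Snrpd2, both and mCherry mRNA, Eif2b5 reached 4.11, 4.23, 3.81 and 4.77 cRPKM in 2-cell embryos and 2.04, 2.01, 2.95 and 2.97 cRPKM in 1-cell embryos. Eif2b5 was higher in every 2-cell library than in any 1-cell library, and it was 1.44-fold higher (log2 0.52, SE 0.16, edgeR adjusted p = 0.0141). Its call was lost without the 2-cell Snrpb, 2-cell Snrpd2, 1-cell Snrpb or 1-cell Snrpd2 library, where log2 changes were 0.40 to 0.46 and edgeR adjusted p values 0.0621 to 0.0695. Eif2b5 was the least abundant of the 5 genes at both stages, at 4.23 ± 0.40 cRPKM and 2.49 ± 0.54 cRPKM (2-cell and 1-cell stage, SD, n = 4 each). It was also set against Eif2s1, the gene of the alpha subunit of eIF2. Eif2b5 over Eif2s1 was 0.109 to 0.139 in the 2-cell libraries and 0.0375 to 0.0583 in the 1-cell libraries. This is a log2 difference of 1.32 (SE 0.16, two-sided exact permutation test, p = 0.0286, adjusted p = 0.0409 over 10 pairs). Eif2s1 was itself lower at the 2-cell stage (log2 -0.79), so the ratio holds both changes. Ratios to the other eIF2 subunit genes were not formed. Summed over its 5 genes, eIF2B made up 4.09% to 4.83% of the cRPKM of the 47 genes at the 2-cell stage and 14.9% to 16.5% at the 1-cell stage. Eif2b1 carried most of that sum.

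**Figure D4:**
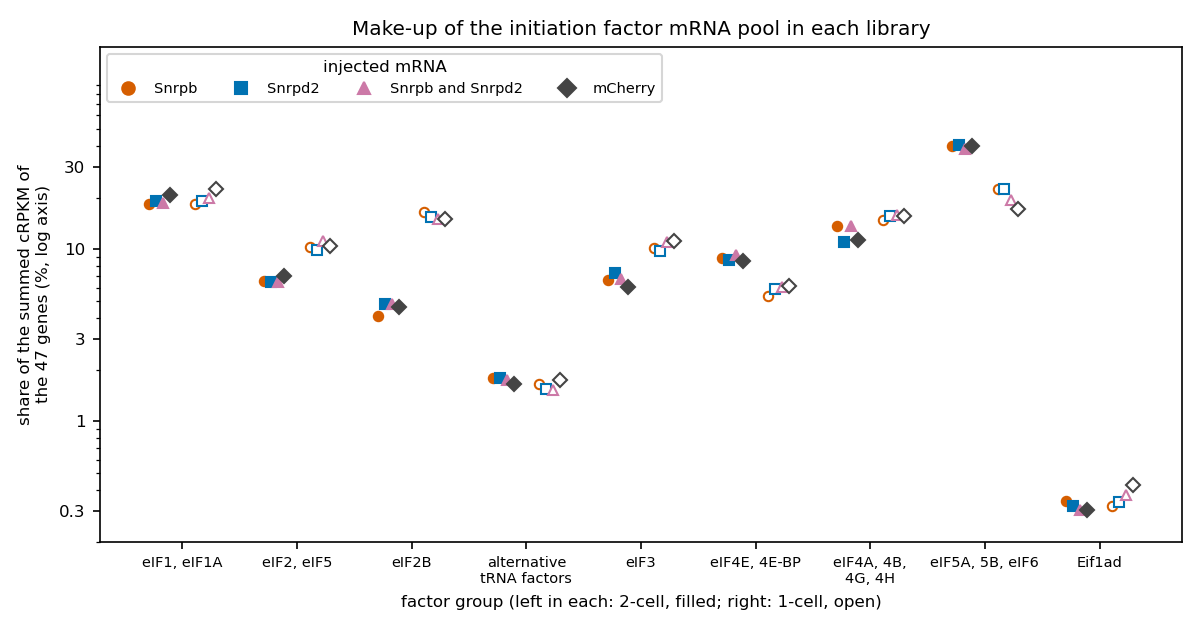
Share of each factor group in the summed cRPKM of the 47 genes, on a log axis, in each library (filled points on the left of each group are 2-cell, open points on the right are 1-cell). eIF2B made up 4.09% to 4.83% in the 2-cell libraries, against 14.9% to 16.5% in the 1-cell libraries, and the group of eIF5A, eIF5B and eIF6 made up 38.4% to 40.4% in the 2-cell libraries, against 17.2% to 22.5% in the 1-cell libraries.

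Eif2a and Eif2d encode proteins that can bring initiator tRNA to the ribosome without eIF2. Neither passed the test of stage. Eif2a averaged 21.3 ± 0.59 cRPKM at the 2-cell stage and 14.6 ± 1.98 cRPKM at the 1-cell stage (SD, n = 4 each) without overlap, but the change after TMM scaling was 0.30 on the log2 scale (SE 0.13, edgeR adjusted p = 0.0622). Eif2a was called higher with DESeq2, its size factors, library totals and limma on log2 cRPKM. It was also called higher in a model of 4 groups and without either Snrpd2 library. Eif2d averaged 43.9 ± 4.11 cRPKM at the 2-cell stage and 37.5 ± 5.34 cRPKM at the 1-cell stage (SD, n = 4 each), and the sign of its small change depended on the scaling. Eif1ad, named for its likeness to eIF1A, averaged 12.02 ± 0.77 and 11.7 ± 1.66 cRPKM at the 2-cell and 1-cell stages (SD, n = 4 each), with a sign that also depended on scaling. Eif1ad did not pass the main test but was called lower in the model of 4 groups.

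eIF3 is the largest factor, a scaffold on the small ribosomal subunit. Leaving out its loosely bound j subunit, 8 of its 12 other genes were lower at the 2-cell stage, 1 was higher and 3 did not pass, with a median log2 change of -0.64. For Eif3e the values were 10, 13.1, 13.6 and 10.01 cRPKM at the 2-cell stage after Snrpb, Snrpd2, both and mCherry mRNA, against 43.0, 40.0, 49.3 and 52.6 cRPKM at the 1-cell stage after the same mRNAs. Eif3e had the largest fall among the eIF3 genes. Its 2-cell and 1-cell values were far apart, and it was 4.75-fold lower (log2 -2.25, SE 0.15, edgeR adjusted p = 4.32e-07). Eif3d had 6.33, 10.8, 6.82 and 8.77 cRPKM in 2-cell embryos given Snrpb, Snrpd2, both and mCherry mRNA, against 18.9, 17.4, 21.8 and 25.7 cRPKM in 1-cell embryos given the same. Eif3d encodes a subunit that can itself bind the cap of some mRNAs. Its groups did not overlap, and it was 3.09-fold lower (log2 -1.63, SE 0.17, edgeR adjusted p = 1.29e-05). In 2-cell embryos given Snrpb, Snrpd2, both and mCherry mRNA Eif3b stood at 6.54, 10.2, 7.57 and 8.32 cRPKM, against 21.6, 19.1, 22.2 and 20.3 cRPKM in their 1-cell counterparts. Eif3b, a core subunit, showed the same separation and was 3.09-fold lower (log2 -1.63, SE 0.15, edgeR adjusted p = 5.31e-06).

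The remaining lower genes of eIF3 were Eif3g, Eif3m, Eif3k, Eif3c and Eif3i, with log2 changes from -1.34 for Eif3g to -0.40 for Eif3i. Eif3c and Eif3i lost their calls with library totals, and Eif3i also without the 2-cell Snrpb, 1-cell Snrpb or combined 2-cell library (log2 -0.42 to -0.33, edgeR adjusted p 0.051 to 0.0536). Eif3i was the most abundant eIF3 gene at both stages, at 104 ± 7.96 cRPKM and 115 ± 12.1 cRPKM (2-cell and 1-cell stage, SD, n = 4 each). Eif3a, the scaffold of the core, did not pass (7.91 ± 0.57 cRPKM at the 2-cell stage and 6.86 ± 0.97 cRPKM at the 1-cell stage, SD, n = 4 each), and the sign of its change depended on the scaling. Eif3h and Eif3l did not pass either, but both were called lower in a model of 4 groups and without either Snrpd2 library.

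Among these 12 genes Eif3f alone was higher. Eif3f measured 5.19, 8.76, 6.88 and 5.99 cRPKM in the 2-cell libraries of Snrpb, Snrpd2, both mRNAs and mCherry, and 3.21, 3.21, 3.95 and 4.68 cRPKM in the matching 1-cell libraries. The groups did not overlap, and the gene was 1.48-fold higher (log2 0.56, SE 0.18, edgeR adjusted p = 0.0164). The call was lost in a model of 4 groups (log2 0.43), and without either Snrpd2 library or either library given both mRNAs, where the log2 change was 0.33 to 0.55 and edgeR adjusted p 0.0569 to 0.1. The j subunit is encoded by Eif3j1 and Eif3j2. The 2-cell levels of Eif3j1 were 1.87, 2.26, 2.55 and 2.22 cRPKM with Snrpb, Snrpd2, both and mCherry mRNA, and its 1-cell levels were 1.02, 0.99, 1.18 and 1.24 cRPKM with these mRNAs. All 2-cell values of Eif3j1 were above, the gene was 1.68-fold higher (log2 0.75, SE 0.21, edgeR adjusted p = 0.00837), and it was not called without either library given both mRNAs (log2 0.66 to 0.69, edgeR adjusted p 0.0537 to 0.0611). Of the 50-base words of Eif3j1 39.8% also occur in other genes, mostly in Eif3j2, so reads may be shared. Eif3j2 had 9, 11, 7 and 12 reads in 2-cell embryos given Snrpb, Snrpd2, both and mCherry mRNA, against 2, 0, 0 and 2 reads in the 1-cell libraries. It passed the test (edgeR adjusted p = 0.0107) but not without either Snrpd2 library (adjusted p 0.0525 to 0.0585), and with stage as the only term it was not among the genes tested. Of its 50-base words 91.9% also occur in other genes, mostly in Eif3j1, and its deposited cRPKM corresponds to a length of only 61 bases. Its counts are therefore uncertain.

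All 5 genes of the group of eIF4E and 4E-BP were higher at the 2-cell stage. They are Eif4e and Eif4e2, for cap-binding proteins, and the 3 genes of 4E-BP, the inhibitors of eIF4E. With Snrpb, Snrpd2, both and mCherry mRNA, Eif4ebp1 reached 23.6, 31.6, 32.1 and 26.0 cRPKM in 2-cell embryos and 3.27, 2.00, 3.04 and 2.27 cRPKM in 1-cell embryos. Eif4ebp1 encodes the inhibitor 4E-BP1, a target of mTOR. Its lowest 2-cell value was several times its highest 1-cell value, and it was 9.01-fold higher (log2 3.17, SE 0.20, edgeR adjusted p = 3.7e-07). For Eif4ebp2 the values were 4.16, 4.42, 3.62 and 3.07 cRPKM at the 2-cell stage after Snrpb, Snrpd2, both and mCherry mRNA, against 1.96, 1.90, 2.37 and 1.58 cRPKM at the 1-cell stage after the same mRNAs. Eif4ebp2, for another inhibitor, also did not overlap and was 1.63-fold higher (log2 0.71, SE 0.19, edgeR adjusted p = 0.00715). Eif4ebp3 had 32 to 43 reads per library at the 2-cell stage, against 4, 1 and 6 reads in 1-cell embryos given Snrpb, Snrpd2 and both and 23 reads with mCherry. It was 6.63-fold higher (log2 2.73, SE 0.72, edgeR adjusted p = 0.00634), and 65.5% of its 50-base words lie in another annotated gene, AC115631.1, so that its reads are uncertain.

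Eif4e2 had 19.4, 21.3, 21.5 and 17.4 cRPKM in 2-cell embryos given Snrpb, Snrpd2, both and mCherry mRNA, against 9.05, 8.16, 9.07 and 12.3 cRPKM in 1-cell embryos given the same. Eif4e2 encodes the cap-binding protein 4EHP, which does not bind eIF4G and represses its targets. Its groups did not overlap, and it was 1.74-fold higher (log2 0.80, SE 0.15, edgeR adjusted p = 0.00101). In 2-cell embryos given Snrpb, Snrpd2, both and mCherry mRNA Eif4e stood at 266, 286, 276 and 292 cRPKM, against 160.1, 177, 172 and 185 cRPKM in their 1-cell counterparts. Eif4e itself was 1.35-fold higher (log2 0.43, SE 0.10, edgeR adjusted p = 0.00326), without overlap, and lost its call when the 1-cell library given both mRNAs was left out (log2 0.38, edgeR adjusted p = 0.061). At the mRNA level, Eif4ebp1 over Eif4e was 0.0889 to 0.116 in the 2-cell libraries and 0.0113 to 0.0204 in the 1-cell libraries, a log2 difference of 2.75 (SE 0.23, two-sided exact permutation test, p = 0.0286, adjusted p = 0.0409 over 10 pairs). The ratios of Eif4ebp2 to Eif4e (log2 difference 0.28, exact p = 0.257, adjusted p = 0.286) and of Eif4e2 to Eif4e (0.37, exact p = 0.0571, adjusted p = 0.0714) did not pass. The phosphorylation that sets 4E-BP activity was not measured.

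eIF4A is the RNA helicase of initiation, and its 2 genes fell together. Eif4a1 measured 111, 132, 121 and 131 cRPKM in the 2-cell libraries of Snrpb, Snrpd2, both mRNAs and mCherry, and 307, 307, 296 and 326 cRPKM in the matching 1-cell libraries. Groups were far apart, and Eif4a1 was 2.99-fold lower (log2 -1.58, SE 0.11, edgeR adjusted p = 6.69e-07). The 2-cell levels of Eif4a2 were 20.5, 19.5, 22.1 and 18.9 cRPKM with Snrpb, Snrpd2, both and mCherry mRNA, and its 1-cell levels were 49.1, 47.2, 45.4 and 50.5 cRPKM with these mRNAs. Here too no values overlapped, and Eif4a2 was 2.85-fold lower (log2 -1.51, SE 0.12, edgeR adjusted p = 1.59e-06). Eif4a1 over Eif4a2 was 5.43 to 6.93 in the 2-cell libraries and 6.25 to 6.52 in the 1-cell libraries, a log2 difference of -0.07 (SE 0.10, two-sided exact permutation test, p = 0.429), which leaves the ratio of the paralogs not distinguishable between the stages. Of the 50-base words of Eif4a1, 65.3% also occur elsewhere, mostly in the pseudogene Eif4a-ps4, so reads may be shared. The helicase cofactor genes Eif4h and Eif4b fell too. With Snrpb, Snrpd2, both and mCherry mRNA, Eif4h reached 5.43, 7.27, 5.85 and 7.18 cRPKM in 2-cell embryos and 13.6, 12.04, 16.1 and 18.9 cRPKM in 1-cell embryos. Its groups did not overlap, and Eif4h was 2.80-fold lower (log2 -1.49, SE 0.15, edgeR adjusted p = 8.17e-06). Eif4b was 1.97-fold lower (log2 -0.98, SE 0.11, edgeR adjusted p = 2.1e-05), at 47.1 ± 2.65 cRPKM and 77.8 ± 6.51 cRPKM (2-cell and 1-cell stage, SD, n = 4 each).

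The promoter windows of the helicase genes, read in the same way, are shown because these paralogs moved together. The Eif4a1 window is chr11:69672394-69672673 on the minus strand and the Eif4a2 window is chr16:23107218-23107497 on the plus strand.
Eif4a1: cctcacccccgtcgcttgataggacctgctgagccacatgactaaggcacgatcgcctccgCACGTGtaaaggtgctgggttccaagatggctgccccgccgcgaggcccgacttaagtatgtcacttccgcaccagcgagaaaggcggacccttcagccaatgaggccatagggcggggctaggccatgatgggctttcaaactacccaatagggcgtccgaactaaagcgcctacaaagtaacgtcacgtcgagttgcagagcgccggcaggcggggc
Eif4a2: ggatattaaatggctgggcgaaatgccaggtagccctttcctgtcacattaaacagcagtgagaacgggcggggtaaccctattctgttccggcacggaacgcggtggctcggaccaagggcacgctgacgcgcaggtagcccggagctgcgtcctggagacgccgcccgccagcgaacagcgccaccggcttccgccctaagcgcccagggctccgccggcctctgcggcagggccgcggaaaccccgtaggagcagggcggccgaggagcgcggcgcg
The Eif4a1 window held 1 CACGTG, and the Eif4a2 window held neither motif. At least 1 window was found in RefSeq for 37 of the 47 genes, and a gene was counted when any of its windows held the motif. CACGTG was present for 10 of these 37 genes (27.0%) and for 7.71% of all 27025 genes with a window, and CCGGAAG for 14 (37.8%) and 9.48%. By stage, CACGTG was present for 5 of 11 genes higher at the 2-cell stage and for 4 of 20 genes lower there, and CCGGAAG for 4 of 11 and 8 of 20. The windows of the 37 genes averaged 61.4% GC per gene, against 53.4% over all genes with a window, and the part of base composition in these shares was not tested.

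The scaffold eIF4G has 3 related genes, of which 2 were higher and 1 was lower at the 2-cell stage. For Eif4g2 the values were 269.9, 214, 273 and 228 cRPKM at the 2-cell stage after Snrpb, Snrpd2, both and mCherry mRNA, against 25.6, 41.9, 27.7 and 17.1 cRPKM at the 1-cell stage after the same mRNAs. Eif4g2 encodes DAP5, which lacks the eIF4E-binding part and serves cap-independent initiation. Its levels were far apart between the stages, and it was 7.70-fold higher (log2 2.94, SE 0.22, edgeR adjusted p = 1.13e-06). Eif4g1 had 16.4, 13.3, 15.3 and 14.2 cRPKM in 2-cell embryos given Snrpb, Snrpd2, both and mCherry mRNA, against 7.92, 10.7, 10.04 and 7.87 cRPKM in 1-cell embryos given the same. Eif4g1, the main scaffold, did not overlap between the stages either and was 1.36-fold higher (log2 0.45, SE 0.14, edgeR adjusted p = 0.0165). That call was lost without either Snrpb library, either library given both mRNAs or either mCherry library (log2 0.33 to 0.46, edgeR adjusted p 0.0582 to 0.0947). In 2-cell embryos given Snrpb, Snrpd2, both and mCherry mRNA Eif4g3 stood at 5.45, 5.06, 5.18 and 4.18 cRPKM, against 7.84, 9.53, 10.3 and 9.35 cRPKM in their 1-cell counterparts. Eif4g3, another cap-dependent scaffold, had all 2-cell values below the 1-cell values and was 2.23-fold lower (log2 -1.16, SE 0.13, edgeR adjusted p = 2.16e-05).

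Within libraries, Eif4g2 over Eif4g1 was 16.1 to 17.9 at the 2-cell stage and 2.17 to 3.93 at the 1-cell stage, a log2 difference of 2.49 (SE 0.19), and Eif4g3 over Eif4g1 was 0.295 to 0.381 and 0.894 to 1.19 at these stages, a difference of -1.60 (SE 0.11). Both passed the two-sided exact permutation test (p = 0.0286, adjusted p = 0.0409 over 10 pairs). Per length, Eif4g3 was below Eif4g1 in every 2-cell library, and the pair was near equal in the 1-cell libraries. Summed over its 7 genes, the group of eIF4A, eIF4B, eIF4G and eIF4H stood at 439 to 491 cRPKM at the 2-cell stage and 481 to 513 cRPKM at the 1-cell stage, so the sums overlapped although 7 of 7 genes were called.

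Of the factors that act late, eIF5A had both its genes higher at the 2-cell stage. Eif5a measured 1292, 1482, 1257 and 1471 cRPKM in the 2-cell libraries of Snrpb, Snrpd2, both mRNAs and mCherry, and 599, 612, 478 and 409 cRPKM in the matching 1-cell libraries. Eif5a was 2.21-fold higher (log2 1.15, SE 0.15, edgeR adjusted p = 5.32e-05), and its groups did not overlap. The 2-cell levels of Eif5a2 were 5.12, 5.78, 7.64 and 4.86 cRPKM with Snrpb, Snrpd2, both and mCherry mRNA, and its 1-cell levels were 0.25, 0.18, 0.31 and 0.28 cRPKM with these mRNAs. Eif5a2, its low-level paralog, was 19.0-fold higher (log2 4.25, SE 0.18, edgeR adjusted p = 3.52e-08), on 1022 to 1492 reads per 2-cell library and 49 to 77 per 1-cell library. Eif5a2 over Eif5a remained small, 0.00330 to 0.00608 in the 2-cell libraries and 0.000294 to 0.000684 in the 1-cell libraries, with a log2 difference of 3.12 (SE 0.34, two-sided exact permutation test, p = 0.0286, adjusted p = 0.0409 over 10 pairs).

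With Snrpb, Snrpd2, both and mCherry mRNA, Eif5b reached 8.36, 8.16, 10.2 and 7.49 cRPKM in 2-cell embryos and 12.4, 13.3, 12.8 and 10.1 cRPKM in 1-cell embryos. Eif5b encodes the GTPase that joins the ribosomal subunits. The 2-cell library given both mRNAs reached the 1-cell range, and the gene was 1.70-fold lower (log2 -0.77, SE 0.12, edgeR adjusted p = 0.000285). For Eif6 the values were 88.7, 113, 101 and 97.5 cRPKM at the 2-cell stage after Snrpb, Snrpd2, both and mCherry mRNA, against 120.1, 91.6, 105 and 145 cRPKM at the 1-cell stage after the same mRNAs. Eif6 encodes a protein that keeps the large subunit from joining too early. Its groups overlapped, and it was 1.37-fold lower (log2 -0.45, SE 0.15, edgeR adjusted p = 0.0186). The Eif6 call was lost with library totals and without either Snrpb library or the 2-cell mCherry library (log2 -0.36 to -0.35, edgeR adjusted p 0.0684 to 0.0911). Together eIF5A, eIF5B and eIF6 made up 38.4% to 40.4% of the cRPKM of the 47 genes at the 2-cell stage and 17.2% to 22.5% at the 1-cell stage, most of it Eif5a.

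Of 45 other genes of translation and its control, 15 were higher at the 2-cell stage, 16 were lower and 14 did not pass, with a median log2 change of -0.02. The largest falls were those of Pabpn1l, for a nuclear-type poly(A)-binding protein of the egg and early embryo (22.3-fold lower, 10.3 ± 1.18 cRPKM at the 2-cell stage and 192 ± 18.8 cRPKM at the 1-cell stage, edgeR adjusted p = 1.54e-08), Mknk1, an eIF4E kinase gene (4.24-fold lower, adjusted p = 6.83e-07), and Paip2b, for an inhibitor of poly(A)-binding protein (3.22-fold lower, adjusted p = 1.45e-06). The largest rises were those of Mcts2, related to the Mcts1 reinitiation factor (23.7-fold higher, edgeR adjusted p = 7.98e-07), Pabpc1, the somatic poly(A)-binding protein gene (8.71-fold higher, 14.3 ± 2.25 cRPKM at the 2-cell stage and 1.41 ± 0.46 cRPKM at the 1-cell stage, adjusted p = 1.18e-07), and Mknk2, the other eIF4E kinase gene (6.41-fold higher, adjusted p = 3.54e-07). All SDs are over 4 libraries per stage.

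The second question was whether Snrp mRNA changed these genes relative to mCherry. At the 1-cell stage none of the 47 passed (edgeR, 3 libraries given Snrp mRNA against 1 mCherry library, 0.0% of all 16867 genes called), while 12 had an unadjusted p under 0.05, as had 2618 of all genes. Eif1b had 382, 386 and 425 cRPKM in 1-cell embryos given Snrpb, Snrpd2 and both, against 583 cRPKM with mCherry. The mCherry library was the highest, and the difference was -0.52 on the log2 scale (SE 0.15, edgeR adjusted p = 0.167). Eif4g2 had 25.6, 41.9 and 27.7 cRPKM in 1-cell embryos given Snrpb, Snrpd2 and both, against 17.1 cRPKM with mCherry. All 3 Snrp libraries were above mCherry, with a difference of 0.93 (SE 0.27, edgeR adjusted p = 0.178). Eif1 had 207, 217 and 174 cRPKM in 1-cell embryos given Snrpb, Snrpd2 and both, against 137 cRPKM with mCherry. Again all 3 were above mCherry, with a difference of 0.58 (SE 0.17, edgeR adjusted p = 0.182). These 3 had the smallest p values of the 47.

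DESeq2 on the same counts called Eif4g2 higher (log2 0.92, adjusted p = 0.0141) and Eif1b lower (log2 -0.53, adjusted p = 0.0439) at the 1-cell stage, among 534 genes in all. All 3 Snrp libraries lay below mCherry for 26 of the 47 genes and above it for 9, where the shares over all genes tested were 34.6% and 30.5%. Of the 14 eIF3 genes 11 had a negative difference, with a median of -0.36 and no call. Over the 47 genes 32 were negative, with a median of -0.19, and over all 16867 genes tested 8185 were negative, with a median of 0.0. The libraries on the Snrp side also had more reads of cumulus markers, 35.0 to 51.8 cRPKM summed over 20 genes against 25.1 cRPKM with mCherry, with 3 or 4 markers at 0 in each and Ereg at 0 in all 4. The injected mRNA took 0.46% to 4.88% of their reads. The part of either in these differences was not tested, and the single mCherry pool cannot be told apart from its injection.

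At the 2-cell stage too none of the 47 passed (edgeR, 0.0% of all genes called), and 2 had an unadjusted p under 0.05, as had 637 of all genes. DESeq2 called none. Eif5 had 110.0, 124 and 111 cRPKM in 2-cell embryos given Snrpb, Snrpd2 and both, against 147 cRPKM with mCherry. The mCherry library was the highest, with a difference of -0.40 (SE 0.14, edgeR adjusted p = 1.0). Eif2s3y, whose reads are given above, had a difference of 1.56 on the log2 scale (SE 0.66, edgeR adjusted p = 1.0), and Eif1 one of -0.35 (SE 0.16, edgeR adjusted p = 1.0). All 3 Snrp libraries were below mCherry for 13 genes and above it for 11, with 23.4% of all genes on each side.

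The difference between the stages in the effect of Snrp mRNA was tested directly, and no gene of the 47 passed (edgeR, 0.0% of all genes called, 8 at an unadjusted p under 0.05, 1648 over all genes). DESeq2 called none of the 47. Eif1 had the smallest p, with a difference between the 2-cell and 1-cell effects of -0.92 on the log2 scale (SE 0.23, edgeR adjusted p = 0.381). Eif3h, an eIF3 subunit gene, followed with 0.71 (SE 0.26, edgeR adjusted p = 0.424). Eif3h had 41.3, 51.2, 40.0 and 38.4 cRPKM in 2-cell embryos given Snrpb, Snrpd2, both and mCherry mRNA, against 41.2, 34.6, 43.8 and 59.7 cRPKM in 1-cell embryos given the same. Its mCherry library was the lowest at the 2-cell stage and the highest at the 1-cell stage. Eif4e2, whose levels are given above, had a difference of 0.66 (SE 0.24, edgeR adjusted p = 0.424). Over both stages, Snrpb mRNA, Snrpd2 mRNA and the combination gave no call among the 47 (edgeR, 2 libraries against 2 each, 0.0%, 0.00615% and 0.0% of all genes called, with 2, 2 and 1 of the 47 at an unadjusted p under 0.05, and 583, 497 and 506 of all 16264 genes), and DESeq2 gave none. These 3 comparisons share the mCherry libraries. Comparisons that called 0.0% of all genes, those at each stage included, did not call the injected Snrpb or Snrpd2 either. A lack of calls in them therefore does not show that a gene was unchanged. The smallest p for Snrpb mRNA were those of Eif1ax (log2 -0.39), Eif1b (-0.40) and Eif2b4 (-0.48), with an edgeR adjusted p of 0.947 for each, and for the combination those of Eif2b4 (-0.49), Eif5b (0.37) and Eif1b (-0.33), with 0.973 for each. For Snrpd2 mRNA they were those of Eif3l (log2 -0.41), Eif2s3y (2.00) and Eif4g2 (0.62), with an edgeR adjusted p of 0.998 for each. In 2-cell embryos given Snrpb, Snrpd2, both and mCherry mRNA Eif3l stood at 9.93, 10.6, 11.2 and 12.2 cRPKM, against 9.97, 9.36, 11.1 and 13.9 cRPKM in their 1-cell counterparts. Eif3l encodes an eIF3 subunit, and its mCherry library was the highest at each stage.

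**Figure D5:**
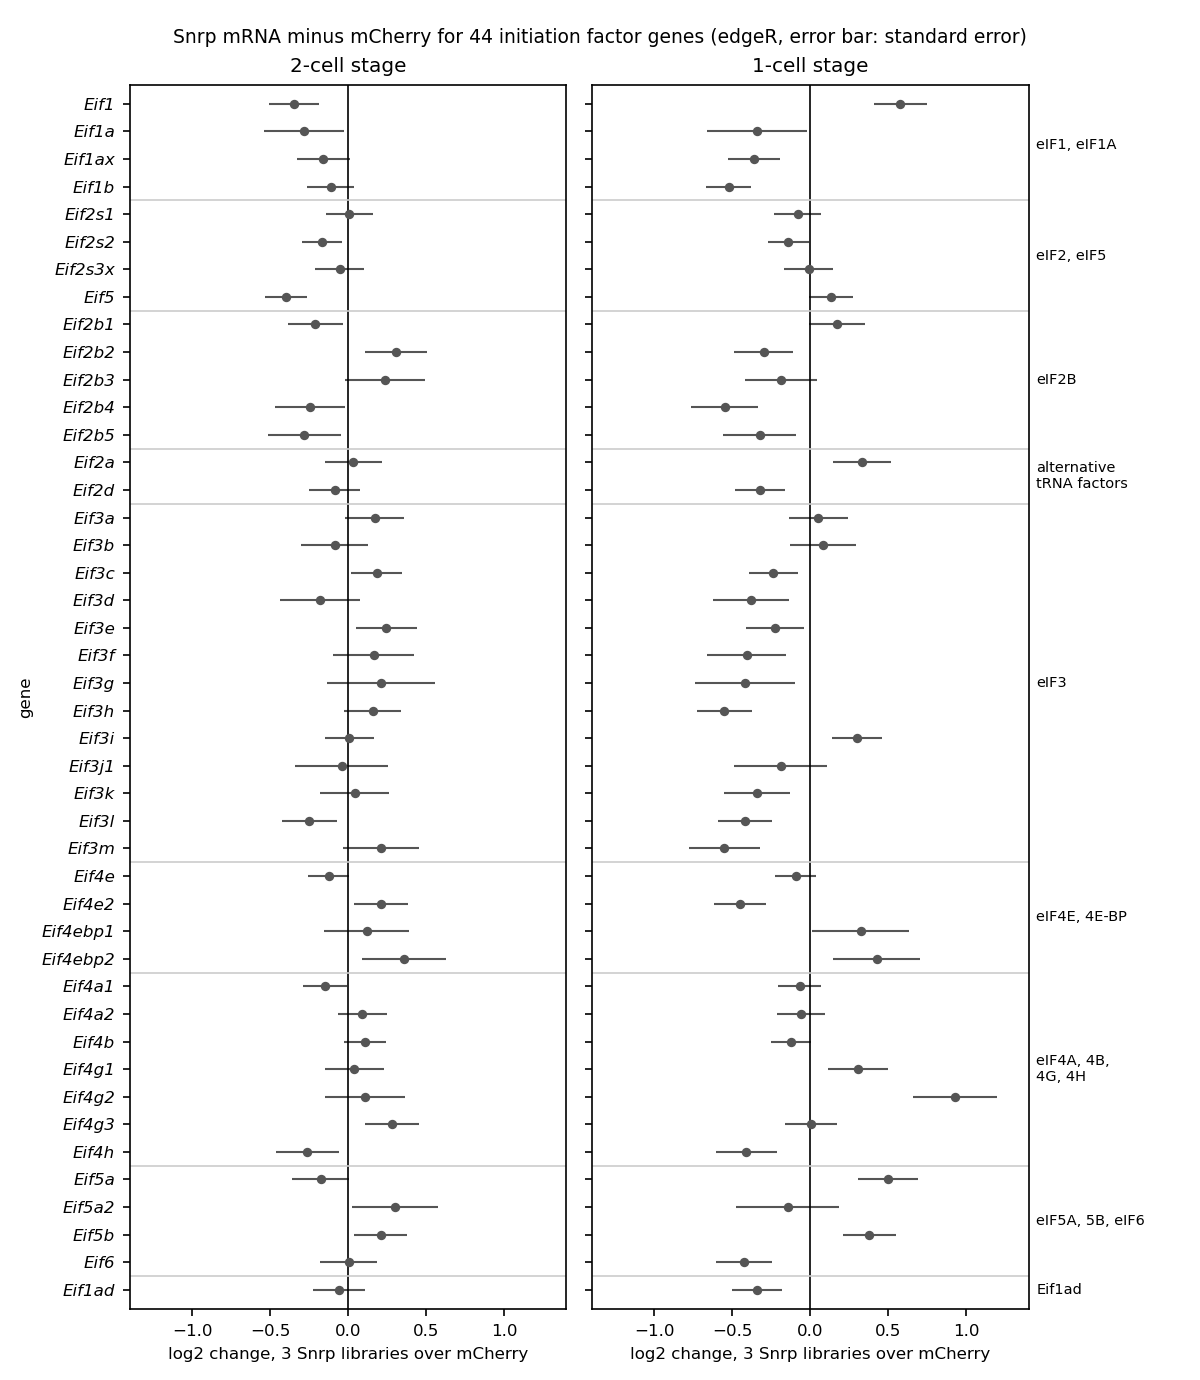
Log2 difference between the 3 libraries given Snrp mRNA and the mCherry library at each stage (edgeR, with standard errors), for the 44 genes with at least 10 reads in every library. At the 1-cell stage Eif4g2 (0.93) and Eif1 (0.58) lie farthest to the right and no gene passed the test at either stage.

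Single libraries were also set against the mCherry library of their stage, for genes reaching 50 reads in at least 1 of the pair, which describes libraries and not conditions. At the 2-cell stage 1 of 45 genes tested differed at least 2-fold after Snrpb, 1 after Snrpd2 and 0 after both, where 4.37%, 4.31% and 3.51% of all genes did. In the Snrpb and Snrpd2 libraries that gene was Eif2s3y, at 2.85 times (95% interval 1.92 to 4.33) and 4.12 times (2.84 to 6.12) the mCherry value. At the 1-cell stage 0 of 44 differed after Snrpb, 2 after Snrpd2 and 0 after both, against 4.66%, 5.16% and 4.16% of all genes. With Snrpd2, Eif4g2 stood at 2.52 times (2.43 to 2.60) and Eif1a at 0.492 times (0.331 to 0.72) the mCherry value, the last on 41 and 88 reads. These exact binomial intervals cover counting error only, since each side is 1 library. Duplicate reads of a molecule could not be told apart, so the intervals may be too narrow even for counting error. In the mCherry embryos alone, 2-cell against 1-cell, 6 of 44 genes were at least 2-fold higher and 17 at least 2-fold lower, 23 in all. Of all 13282 genes 53.2% differed as much, 3729 higher and 3335 lower.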

How the data were processed

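Polyadenylated RNA of 8 pools of injected mouse embryos was sequenced on an Illumina HiSeq2500 from SMARTer stranded libraries, per the labels' protocols. The deposited files give, per Ensembl gene, the authors' read counts and cRPKM, an RPKM with a fixed effective length per gene; the submitters' processing notes name the build mm9. The sources used here do not give the aligner, annotation or strand setting. In 2662 genes above 2000 reads the deposited counts and cRPKM gave the same length within 0.172%. The 47 genes and all lists were chosen with earlier results of these data known.

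Counts of all genes were fitted with edgeR 4.0.16 in R 4.3.3 (TMM scaling, expression filter, quasi-likelihood test, Benjamini-Hochberg adjustment over all genes, threshold 0.05). Stage and single injections came from a model of injection plus stage (16264 genes, 3 residual degrees of freedom), and Snrp mRNA against mCherry from a model of 4 groups (16867 genes, 4 residual degrees of freedom), which takes the 3 Snrp injections as replicates. Ratios of 12 gene pairs were formed, and the 10 without zeros were tested by two-sided exact permutation, unpaired by injection. Values in every library are given, per factor group, for up to 3 called higher and 3 called lower genes by size of change, for the 3 smallest p of each injection comparison, and for some genes of the pairs; of 45 other translation genes the 3 most changed in each direction are named. DESeq2 1.42.0, limma 3.58.1 on log2(cRPKM + 0.1), other scalings and each library left out were alternatives. Statistics were tested on simulated data. Promoter windows were from RefSeq and shared words from GENCODE vM21 transcripts.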

Additional observations from a re-analysis of the deposited data

Results flagged for a closer look

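Of 93 sets of 4 libraries (a gene at a stage), 5 had a library set apart from the other 3 by a gap above the 95% critical value for 4 samples, about as many as chance gives (1 in 20). Eif1a, for eIF1A, had 0.30 cRPKM in the 1-cell Snrpd2 library and 0.56 to 0.61 cRPKM in the other 1-cell libraries. Eif1ax, its X-linked relative, had 7.54 cRPKM in the 2-cell Snrpb library and 9.59 to 9.79 cRPKM in the other 2-cell libraries. Eif3i, for an eIF3 subunit, had 115.78 cRPKM in the 2-cell Snrpd2 library and 98.2 to 101.2 cRPKM in the other 2-cell libraries. Eif3a, for another, had 8.13 to 8.28 cRPKM in the 3 Snrp libraries of the 2-cell stage and 7.06 cRPKM in the mCherry library. Eif2b2, for the beta subunit of eIF2B, had 14.8 to 15.2 cRPKM in the 3 Snrp libraries of the 1-cell stage and 18.87 cRPKM in the mCherry library.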

How the results depend on the processing

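Leaving out 1 library at a time, 12 to 15 of the 47 genes were higher and 21 to 26 lower at the 2-cell stage, and no injection comparison called any of them. Over all genes tested 5569 to 5874 were then higher and 4680 to 5270 lower by stage. DESeq2 gave 17 higher and 24 lower by stage, where 6412 of all genes were higher and 5116 lower. For Snrp mRNA at the 1-cell stage it gave 1 higher and 1 lower, among 534 genes called in all. Some genes that did not pass the test of stage changed sign. Eif1ad was at 0.042 on the log2 scale with library totals, and at 0.0417 and 0.0383 with limma at pseudocounts 0.1 and 1. Eif3a was at 0.21 with library totals and with limma at pseudocount 0.1, and at 0.19 at pseudocount 1. Eif2d was at 0.0153 with DESeq2 or its size factors, 0.23 with library totals and with limma at either pseudocount, and between -0.17 and 0.0268 leaving out 1 library. Eif2s3x was at -0.0061 with no filter on low counts, and between -0.0077 and 0.0507 leaving out 1 library.

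Among the single libraries set against mCherry, a fold of 1.5 gave 2 of 45 genes for Snrpd2 and 2 for both mRNAs at the 2-cell stage. Over all genes it gave 1120 higher and 656 lower of 13349, and 922 and 615 of 13134. At the 1-cell stage it gave 4 of 44 genes for Snrpb, 9 for Snrpd2 and 1 for both. Over all genes these were 1133 higher and 759 lower of 11703, 1400 and 1118 of 11560, and 1040 and 575 of 11671. A minimum of 20 reads gave 1 of 45 genes for Snrpb, 3 for Snrpd2 and 1 for both at the 1-cell stage. Over all genes these were 695 higher and 362 lower of 13228, 609 and 396 of 13025, and 666 and 275 of 13146.

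With 1 library left out, the exact test of a pair can give no p below 0.0571 (35 arrangements), so none can pass. The log2 differences then ranged from 5.21 to 5.53 for Eif1a over Eif1ax, 2.28 to 2.70 for Eif1 over Eif1b, -1.67 to -1.53 for Eif4g3 over Eif4g1, and 2.34 to 2.63 for Eif4g2 over Eif4g1. They ranged from 2.61 to 2.90 for Eif4ebp1 over Eif4e, 2.88 to 3.29 for Eif5a2 over Eif5a, and 1.20 to 1.41 for Eif2b5 over Eif2s1.

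The injection term of the stage model compares paired libraries, each 2-cell library with the 1-cell library of the same injection. When 1 library is left out its partner no longer adds to the stage change. Leaving out either library of an injection is thus nearly the same check, and not a separate one. Each omission also leaves fewer residual degrees of freedom than the 3 of the full fit. With stage as the only term, unpaired, 15 genes were higher and 24 lower. Without replicate pools, the spread between embryos of a condition is not measured.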
